A study of Mus musculus with 8 samples.

Results

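The 10 genes described here belong to the endoplasmic reticulum (ER) folding machinery and the unfolded protein response, and were followed through 8 RNA-seq libraries of mouse liver tumour organoids. They were Xbp1, Hspa5, Hsp90b1, Dnajb9, Sdf2l1, Pdia4, Creld2, Edem1, Herpud1 and Manf. They were chosen by gene symbol, and all 10 had a row among the 45777 genes of the count files. Organoids are 3-dimensional epithelial cultures, and the labels describe these as wild type (WT) hepatocellular carcinoma organoids related to metabolic steatohepatitis (MASH). The resistant group held 1 library each of SNU-6624-TO-LEN and SNU-6625-TO-LEN, lenvatinib-resistant organoids whose treatment label is control. The lenvatinib group held 1 library each of SNU-6624-TO and SNU-6625-TO treated with lenvatinib, a multikinase drug against angiogenic receptors. The parental group held 4 untreated libraries, 1 for each of SNU-6624-TO and SNU-6625-TO and 1 for each of the lines SNU-6621-TO and SNU-6622-TO, which have parental libraries only. The labels used here give no dose, no duration, no age and no animal of origin, so each line may be a single isolate, and p-values cover the library-to-library spread only. The design text asks about multi-biotics in these organoids with lenvatinib, and no multi-biotics library was analysed here. It states no question on the resistant lines. Where 4 parental values are given, they stand in ascending order of line number.

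Proteins bound for secretion or the cell surface fold in the ER. When unfolded proteins accumulate there, the sensors IRE1 (Ern1), PERK (Eif2ak3) and ATF6 start the unfolded protein response: IRE1 splices Xbp1 mRNA into the form that encodes an active transcription factor, ATF6 is cut into a transcription factor, and PERK slows translation and raises ATF4. Their targets include chaperones, disulfide isomerases and the machinery of ER-associated degradation (ERAD), which returns misfolded proteins to the cytosol. Liver epithelium relies on this system because hepatocytes secrete most plasma proteins. Gene counts do not separate spliced from unspliced Xbp1.

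The promoters of 4 of the genes carried the ER stress response element, the DNA element through which ATF6 and XBP1 are known to act, and are shown so that the element can be set beside the values of these genes. The element ERSE was searched as CCAAT and CCACG with 9 free bases between them, and its variant ERSE-II as ATTGG and CCACG with 1 free base between them, on both strands, in windows from 250 bases before to 50 bases after RefSeq gene starts of GRCm38.p6. Only the 250 upstream bases are printed, 5′ to 3′ on the strand of the gene, with the fixed letters of each match in capitals. The windows lie at chr2:34771840-34772089 (plus strand) for Hspa5, chr10:86705445-86705694 (minus strand) for Hsp90b1, chr15:88819396-88819645 (plus strand) for Creld2 and chr8:94386179-94386428 (plus strand) for Herpud1.
Hspa5: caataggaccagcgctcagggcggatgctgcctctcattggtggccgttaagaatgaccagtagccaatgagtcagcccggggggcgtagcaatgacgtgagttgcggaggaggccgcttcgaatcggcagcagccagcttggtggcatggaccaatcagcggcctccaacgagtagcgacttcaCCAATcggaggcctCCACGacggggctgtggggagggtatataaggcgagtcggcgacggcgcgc
Hsp90b1: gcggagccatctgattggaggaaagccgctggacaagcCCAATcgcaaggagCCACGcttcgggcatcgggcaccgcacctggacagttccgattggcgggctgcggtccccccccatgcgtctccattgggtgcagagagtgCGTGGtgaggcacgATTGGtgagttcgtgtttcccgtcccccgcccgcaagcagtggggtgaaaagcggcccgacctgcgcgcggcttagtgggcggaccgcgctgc
Creld2: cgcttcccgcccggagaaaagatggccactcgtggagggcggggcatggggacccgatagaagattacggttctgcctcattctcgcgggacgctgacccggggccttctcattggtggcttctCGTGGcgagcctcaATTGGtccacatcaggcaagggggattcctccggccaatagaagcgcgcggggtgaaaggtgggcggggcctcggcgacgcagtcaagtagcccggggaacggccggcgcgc
Herpud1: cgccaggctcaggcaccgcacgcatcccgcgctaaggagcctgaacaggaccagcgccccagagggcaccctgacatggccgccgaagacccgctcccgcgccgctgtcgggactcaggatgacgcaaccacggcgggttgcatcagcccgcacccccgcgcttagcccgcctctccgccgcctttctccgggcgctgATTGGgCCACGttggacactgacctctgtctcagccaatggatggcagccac

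Hspa5 held an ERSE from -65 to -47, counting the first base of the gene as 0. Hsp90b1 held 2, from -212 to -194 on its own strand and from -107 to -89 on the opposite strand. Creld2 held 1 on the opposite strand, from -126 to -108. Herpud1 held an ERSE-II from -52 to -42, and in addition a match to TGATGNAA, a core of the C/EBP-ATF element that ATF4 is known to use, from -112 to -105 on the opposite strand. The UPRE core TGACGTGG, which XBP1 is known to bind, matched in no member's window. Both ERSE forms end in CCACG, whose reverse complement CGTGG ends the UPRE core, and no matches in these windows overlapped. Of 32851 windows of the same length in the genome, 0.119% held an ERSE, 0.037% an ERSE-II, 0.676% the UPRE core and 3.969% the C/EBP-ATF core. The windows of Xbp1, Dnajb9, Sdf2l1, Pdia4 and Edem1 held no exact match to any of these 4 motifs, and Manf was not among the windows. Only exact matches to the fixed letters were counted, so a form with a changed letter would be missed.

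**Figure D1:**
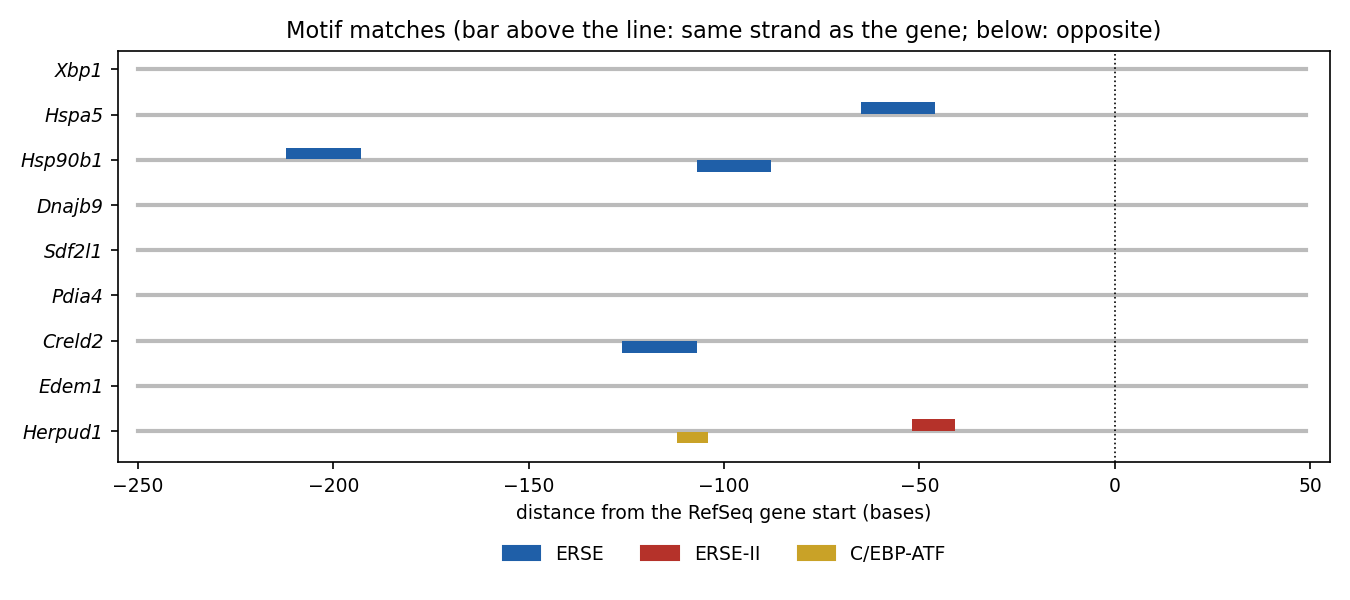
Motif matches in the promoter windows of 9 genes, by distance in bases from the RefSeq gene start (x axis), 1 line per gene. Bars above a line lie on the strand of the gene and bars below it on the opposite strand: Hspa5, Hsp90b1 and Creld2 carry ERSE, Herpud1 carries ERSE-II and a C/EBP-ATF core, and 5 genes carry no match.

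Sequencing gave between 49011663 and 61032387 counts a library, and the lowest count of any of the 10 genes was 472, for Sdf2l1 in resistant SNU-6625. Levels of a gene across libraries are in CPM, counts scaled to a common library total with TMM factors over the 8 libraries. The label was checked against markers: biliary and progenitor genes (Krt19, Krt7, Epcam, Sox9, Prom1, Spp1) summed to 10340 to 11673 CPM in resistant, 2188 to 2511 CPM in lenvatinib and 6844 to 8135 CPM in parental libraries, while the hepatocyte genes Alb, Cps1 and Serpina1a had 0 counts in all 8 and the 6 hepatocyte genes summed to at most 2.28 CPM. The hepatocyte markers that the tumour label would lead one to look for were thus at or near 0. The 6 biliary and progenitor genes did not move alike. Their log2 fold changes with lenvatinib against parental were -3.25 for Krt19, -3.10 for Spp1 and -1.44 for Krt7. The others had -0.63 (Prom1), -0.24 (Epcam) and 0.56 (Sox9). Of cell types known for heavy secretion, the 6 pancreatic acinar genes summed to at most 4.42 CPM in any library. The 6 plasma cell genes summed to 1109 to 1356 CPM in resistant, 679 to 696 in lenvatinib and 933 to 1570 in parental libraries. Nearly all of this was Sdc1, which epithelia also express (1109 and 1356 CPM in the resistant libraries). Igkc and Tnfrsf17 had 0 counts. Fibroblast and endothelial genes summed to at most 1.09 and 9.44 CPM, and macrophage genes to at most 59.5 CPM with Ptprc and Adgre1 at 0. Nearly all of that macrophage maximum was Cd68 (58.7 CPM in parental SNU-6622). The 8 goblet cell genes summed to 10.6 to 141 CPM in resistant, 10.8 to 12.2 CPM in lenvatinib and 63.4 to 198 CPM in parental libraries. Muc5ac was most of the sum in resistant SNU-6624 (138 CPM) and parental SNU-6624 (193 CPM). These genes did not move alike either. With lenvatinib against parental, the log2 fold changes were -7.25 for Agr2, -7.07 for Clca1, -6.36 for Muc5ac and -0.28 for Spdef. Muc2 had 2.19 and Tff3 2.17, several of these genes had few counts, and Muc6 and Tff1 were not tested. The share of ribosomal RNA was 0.0411% to 0.0416% in resistant, 0.0448% to 0.0533% in lenvatinib and 0.0942% to 0.1103% in parental libraries. The part of these shifts in the values given here was not tested. In bulk libraries, fewer cells of a type and less RNA per cell cannot be told apart.

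In the parental lines the chaperones stood well above the other members. Per length of exon, as TPM (the share of length-corrected counts, summing to the same total in each library), Hsp90b1 had 457 ± 45.0 and Hspa5 448 ± 74.4 (mean ± SD, n = 4 lines). Hsp90b1 encodes the ER form of HSP90 (GRP94) and Hspa5 encodes BiP, the ER HSP70 that binds unfolded chains and holds the sensors inactive. Their ranges overlapped, with Hsp90b1 the higher in 3 of the 4 lines, and both lay above every other member in each line.

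Next in order of TPM came Herpud1 (115 ± 43.3), Xbp1 (102 ± 5.88) and Pdia4 (91.6 ± 17.9), whose ranges overlapped one another. Manf followed at 56.8 ± 3.71 TPM, apart from its neighbours on either side. Creld2 (37.4 ± 1.84), Dnajb9 (37.2 ± 10.9), Sdf2l1 (33.0 ± 9.46) and Edem1 (32.1 ± 6.90) formed the lowest group, in which each neighbour overlapped the next. The lowest of these means still lay above that of 70.2% of genes with a length and a parental TPM over 0.

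The lines differed in some members and hardly in others. In CPM, the highest parental line was 1.15-fold above the lowest for Creld2, 1.20-fold for Xbp1 and 1.21-fold for Manf, but 2.05-fold for Herpud1 and 2.04-fold for Sdf2l1. SNU-6621 was the highest line for Herpud1 (139 CPM, where the others had 83.7, 84.6 and 67.7 CPM) and the lowest for Edem1 (52.1 CPM, where the others had 91.2, 81.8 and 92.7 CPM). With 1 library per line, these differences have no replicate check.

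The first comparison sets lenvatinib against parental organoids of lines SNU-6624 and SNU-6625. Hspa5, Creld2 and Dnajb9 had more transcript in the lenvatinib libraries of both lines, and Pdia4 and Sdf2l1 had less. Hsp90b1, Xbp1, Edem1, Herpud1 and Manf lay closer to their parental levels. The 10 genes thus did not share a direction: 5 were higher in both lines, 4 lower in both and 1 (Edem1) higher in 1 line and lower in the other, where all genes tested were 41.5% higher in both, 41.9% lower in both and 15.6% mixed.

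No member was called by edgeR's quasi-likelihood test at an adjusted p under 0.05, where 5.78% of 17038 genes were called, 289 higher (1.7%) and 696 lower (4.08%), or 427 and 556 with library size alone as scaling. At an unadjusted p under 0.05, 3 members were higher and 1 lower, where 31.8% of all genes passed (14.6% higher, 17.2% lower). The smallest adjusted p was that of Creld2, at 0.0533, and Creld2 was called when line was not a term in the fit (edgeR adjusted p = 0.0412, 6.18% of genes called) and over the genes above a filter of 10 CPM (0.0465, 12.6% of genes called). The median log2 fold change was 0.07 over the 10 members and -0.01 over all genes tested.

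**Figure D2:**
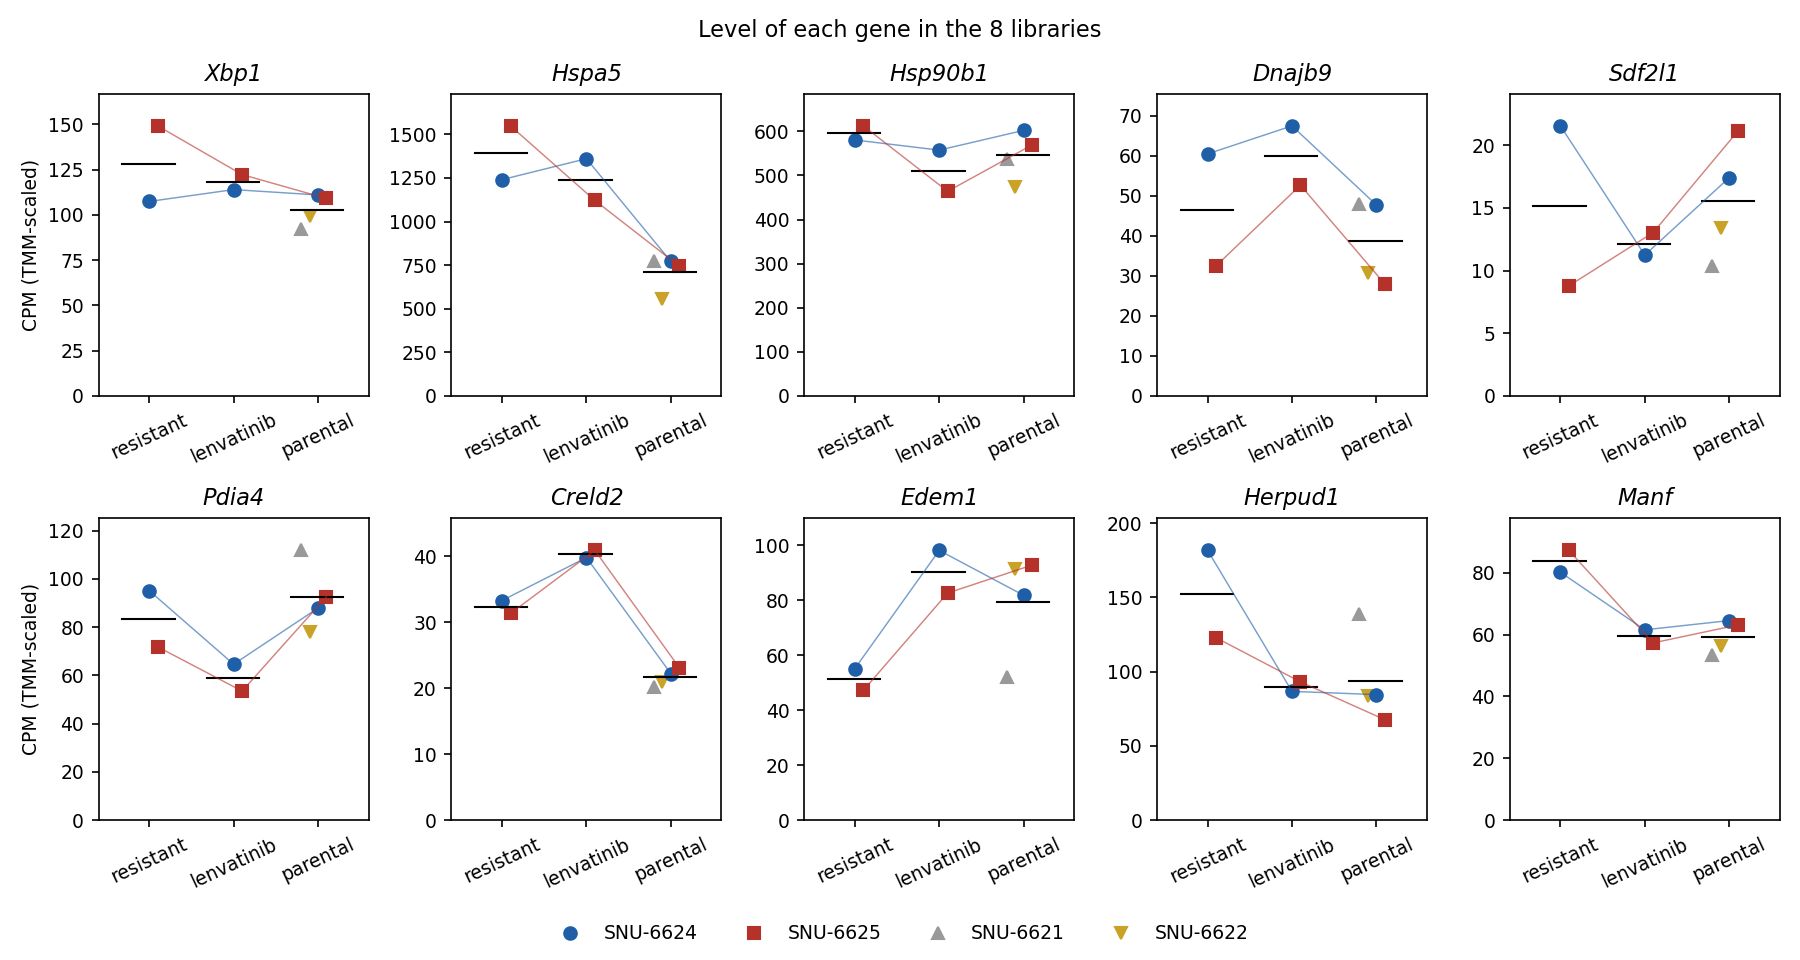
Level of each of the 10 genes in CPM (y axis, from 0) in resistant, lenvatinib and parental libraries, 1 point per library. Symbols give the line, thin lines join libraries of a line, and bars are group means. The 4 resistant and lenvatinib points of Hspa5 (1121 to 1549 CPM) and Creld2 (31.3 to 40.9 CPM) lie above all 4 parental points, while those of Edem1 and Sdf2l1 do not.

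The transducer comes first. Xbp1 (NCBI gene 22433, mm10 chromosome 11, 5520641 to 5525993), whose spliced mRNA encodes a transcription factor for ER chaperones and ERAD genes, had 114 and 122 CPM in lenvatinib libraries (SNU-6624, then SNU-6625, here and throughout), against 92.3, 99.5, 111 and 109 CPM in parental libraries. The lenvatinib values lay just above the parental range. The log2 fold change was 0.10 (SE 0.18, edgeR adjusted p = 0.746).

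Among the chaperones, Hspa5 (gene 14828, mm10 chromosome 2, 34772090 to 34776529) had 78836 and 66471 counts with lenvatinib, against 46013 and 36926 in the matching parental libraries. In CPM these were 1361 and 1121, against 771 and 745, and the other parental lines had 774 and 554. Both lenvatinib libraries lay above all 4 parental libraries. The log2 fold change was 0.71 (SE 0.27, edgeR adjusted p = 0.156), a 1.64-fold difference that was not called.

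Hsp90b1 (gene 22027, mm10 chromosome 10, 86690841 to 86705444), whose protein works beside BiP in the ER lumen, had 558 and 464 CPM in lenvatinib libraries, against 538, 474, 602 and 569 CPM in parental libraries. The groups overlapped, and within each line the lenvatinib value was the lower. It came to -0.20 as a log2 fold change (SE 0.21; edgeR, adjusted p = 0.543).

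The co-chaperones had opposite signs. Dnajb9 (ERdj4, gene 27362, mm10 chromosome 12, 44205897 to 44210068), a J-domain protein that drives the ATPase cycle of BiP, had 67.5 and 52.6 CPM in lenvatinib libraries, against 48.0, 30.8, 47.7 and 27.9 CPM in parental libraries. Both lenvatinib values were above every parental value, and the estimated change was 0.71 (log2, SE 0.19, edgeR adjusted p = 0.0911). Sdf2l1 (gene 64136, mm10 chromosome 16, 17130138 to 17132383), an ER protein that works with J-domain partners of BiP, had 11.2 and 13.0 CPM, against 10.3, 13.4, 17.4 and 21.1 CPM. Within both lines it was lower with lenvatinib, but the 4 parental lines spanned the lenvatinib values, and the log2 fold change was -0.67 (SE 0.46, edgeR adjusted p = 0.368).

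The disulfide-handling members differed in sign as well. Pdia4 (ERp72, gene 12304, mm10 chromosome 6, 47796141 to 47813512), a protein disulfide isomerase, had 64.6 and 53.5 CPM in lenvatinib libraries, against 112, 78.1, 87.9 and 92.6 CPM in parental libraries. It was the only member with both lenvatinib values below the parental range (log2 fold change -0.63, SE 0.18, edgeR adjusted p = 0.101). Creld2 (gene 76737, mm10 chromosome 15, 88819646 to 88826681), a secreted ER stress protein with disulfide isomerase activity, had 2307 and 2425 counts with lenvatinib, against 1327 and 1148 in the matching parental libraries. In CPM, 39.8 and 40.9 stood against 20.2, 21.0, 22.2 and 23.1, and the spread within each group was small beside the gap. Its log2 fold change was 0.83 (SE 0.15).

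Of the ERAD members, Herpud1, an ER membrane protein that recruits the HRD1 ubiquitin ligase complex, had 86.8 and 93.1 CPM in lenvatinib libraries, against 139, 83.7, 84.6 and 67.7 CPM in parental libraries. Edem1, a lectin-like protein that hands misfolded glycoproteins to ERAD, had 98.1 and 82.6 CPM, against 52.1, 91.2, 81.8 and 92.7 CPM. Both overlapped the parental range, with log2 fold changes of 0.26 (SE 0.21) for Herpud1 and 0.04 (SE 0.17) for Edem1. Manf (gene 74840, mm10 chromosome 9, 106888753 to 106891938), a small secreted protein retained in the ER by BiP, had 61.5 and 57.3 CPM, against 53.4, 56.3, 64.5 and 63.1 CPM, and a log2 fold change of -0.10 (SE 0.14). Exons of Manf overlap those of Rbm15b on the same strand, which had 1409 to 2619 counts, so some reads could belong to either gene.

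Against the 4 parental lines, both lenvatinib libraries lay above the range for 4 members (Hspa5, Dnajb9, Xbp1, Creld2) and below it for 1 (Pdia4), where 27.5% and 23.9% of all genes tested did. The count called depended on the resistant libraries, which take no part in this comparison but share its estimate of the spread. Without resistant SNU-6624, 5 members were called (Hspa5, Creld2 and Dnajb9 higher, Pdia4 and Sdf2l1 lower), where 43.3% of genes were called, and the same number was called without resistant SNU-6625 (43.7% of genes) and in the 4 libraries compared (48.3% of genes). DESeq2 called 4 (21.5% of genes) and limma-voom 1 (9.96% of genes).

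**Figure D3:**
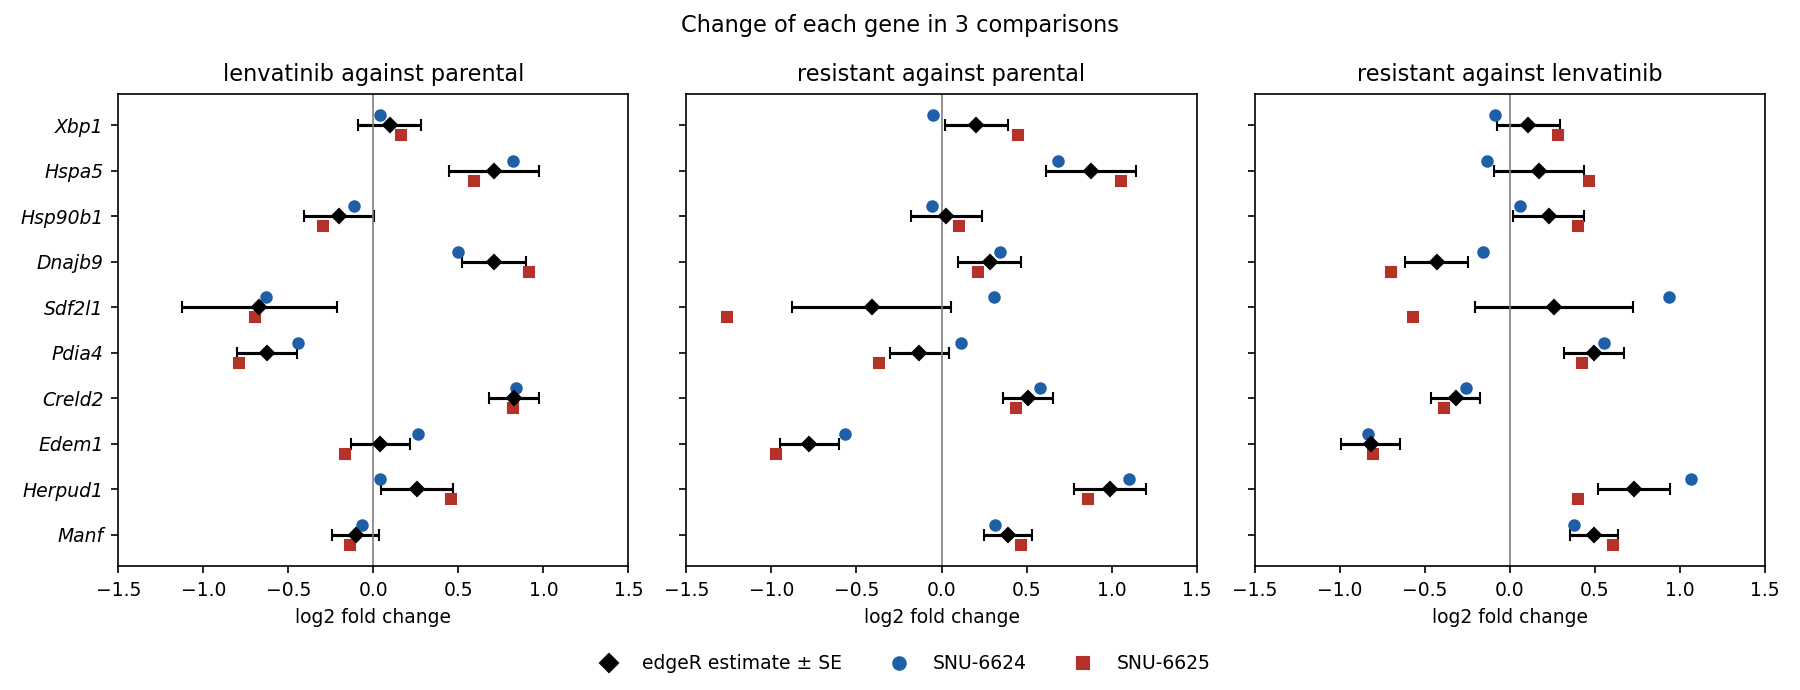
Log2 fold change (x axis) of each gene in the 3 comparisons. Black diamonds are edgeR estimates with bars of 1 SE, and coloured points are the change in SNU-6624 and SNU-6625 alone. Creld2 sits at 0.84 and 0.82 in the lines with lenvatinib, and Sdf2l1 at 0.31 and -1.26 in resistant against parental.

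The second comparison sets resistant against parental organoids of the same lines, and it shares the parental libraries with the first. Herpud1, Hspa5, Creld2 and Manf had more transcript in both resistant libraries and Edem1 had less. Over the members, 5 were higher in both lines, 1 lower in both and 4 mixed, where 30.3%, 32.2% and 36.9% of all genes tested were. No member was called by edgeR, nor was any of the 17038 genes (0% called). At an unadjusted p under 0.05, 4 members were higher and 1 lower, where 15.9% of all genes passed (8.1% higher, 7.84% lower). DESeq2 called 3 members (Herpud1 and Hspa5 higher, Edem1 lower), where it called 6.48% of genes, and limma-voom called 0. The median log2 fold change was 0.24 over the members and -0.01 over all genes tested.

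Herpud1 (gene 64209, mm10 chromosome 8, 94386429 to 94395371) had 9228 and 6606 counts in resistant SNU-6624 and SNU-6625, against 5046 and 3359 in parental. In CPM these were 182 and 123, against 84.6 and 67.7, while parental SNU-6621 had 139 and SNU-6622 83.7. Within each line the resistant value was the higher, yet parental SNU-6621 exceeded resistant SNU-6625. The log2 fold change was 0.99 (SE 0.21, edgeR adjusted p = 0.247), the largest of the 10.

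Edem1 (gene 192193, mm10 chromosome 6, 108824045 to 108859356) ran the other way. It had 2801 and 2537 counts in resistant libraries, against 4879 and 4599 in parental libraries of the same lines. In CPM these were 55.1 and 47.2, against 81.8 and 92.7, with 52.1 in parental SNU-6621 and 91.2 in SNU-6622. The resistant values were at the level of parental SNU-6621 and below the other lines. The log2 fold change was -0.78 (SE 0.17, edgeR adjusted p = 0.247).

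Hspa5 had 63025 and 83275 counts in resistant SNU-6624 and SNU-6625, or 1241 and 1549 CPM, against 554 to 774 CPM over the 4 parental lines. The groups did not overlap, and the log2 fold change was 0.88 (SE 0.27, edgeR adjusted p = 0.274). Creld2 had 33.3 and 31.3 CPM in resistant libraries, against 20.2 to 23.1 CPM in parental lines (log2 fold change 0.51, SE 0.15, edgeR adjusted p = 0.264). Manf had 80.1 and 87.2 CPM, against 53.4 to 64.5 CPM (log2 fold change 0.39, SE 0.14, edgeR adjusted p = 0.304). These 3 were the members with both resistant libraries above all parental lines, where 13.6% of all genes tested were, and no member had both below, where 12.9% were. Rbm15b, whose exons overlap those of Manf on the same strand, had 2619 and 2291 counts in the resistant libraries. In the 4 parental libraries it had 2255, 1656, 1549 and 1409. How far shared reads enter the Manf values was not tested.

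Sdf2l1 was the member in which the resistant cultures parted most. It had 1095 counts (21.6 CPM) in resistant SNU-6624, against 1039 (17.4 CPM) in its parental library, and 472 counts (8.78 CPM) in resistant SNU-6625, against 1047 (21.1 CPM). The log2 changes were 0.31 and -1.26, and the joint estimate of -0.41 had an SE of 0.47. The remaining members had smaller differences or overlapped. Dnajb9 had 60.5 and 32.5 CPM in resistant libraries, against 47.7 and 27.9 CPM in their parental libraries, and Xbp1 had 107 and 149 CPM, against 111 and 109 CPM. Pdia4 had 95.1 and 71.8 CPM, against 87.9 and 92.6 CPM. Hsp90b1 had 581 and 613 CPM, against 602 and 569 CPM, and its log2 fold change of 0.03 became -0.06 with library size alone as scaling.

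With all libraries of the fit kept, edgeR called no member in this comparison. Its calls varied with the resistant library left out. Without resistant SNU-6624, 5 members were called (Hspa5, Herpud1 and Manf higher, Edem1 and Sdf2l1 lower), where 32.3% of genes were called. Without resistant SNU-6625, Herpud1 alone was called, where 3.26% of genes were called.

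The third comparison sets resistant against lenvatinib organoids. Herpud1, Manf, Pdia4 and Hsp90b1 had more transcript in both resistant libraries, Edem1, Creld2 and Dnajb9 had less, and 3 members were mixed, where 32.9% of all genes tested were higher in both and 34.1% lower in both. Since the resistant organoids are labelled control for treatment, resistance and absence of the drug cannot be told apart. No member was called by edgeR, where 6.23% of genes were, 706 higher (4.14%) and 355 lower (2.08%). With library size alone these were 596 and 663, a scaling that moved the median log2 fold change of all genes to -0.14. At an unadjusted p under 0.05, 3 members were higher and 1 lower, where 30.4% of all genes passed (16.4% higher, 14% lower). No member was called by limma-voom (9.31% of genes called), without the line term (6.57%), in the 4 libraries compared (1.45%) or above a filter of 10 CPM (15.6%). DESeq2 called Edem1 (lower) and Herpud1 (higher), where it called 20.9% of genes.

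Edem1 had 55.1 and 47.2 CPM in resistant SNU-6624 and SNU-6625, against 98.1 and 82.6 CPM in lenvatinib libraries (log2 fold change -0.82, SE 0.17, edgeR adjusted p = 0.0657). The changes in the lines were -0.83 and -0.81. Herpud1 had 182 and 123 CPM, against 86.8 and 93.1 CPM (log2 fold change 0.73, SE 0.21, edgeR adjusted p = 0.104), with 1.07 and 0.40 in the lines. Manf had 80.1 and 87.2 CPM, against 61.5 and 57.3 CPM (log2 fold change 0.50, SE 0.14, edgeR adjusted p = 0.102). The overlap with Rbm15b limits this value too, as Rbm15b had 2619 and 2291 counts in resistant, against 2119 and 1951 in lenvatinib libraries. Pdia4 had 95.1 and 71.8 CPM, against 64.6 and 53.5 CPM (log2 fold change 0.50, SE 0.18), and Creld2 33.3 and 31.3 CPM, against 39.8 and 40.9 CPM (-0.32, SE 0.15). Both resistant libraries lay above both lenvatinib libraries for 4 members (Herpud1, Manf, Pdia4 and Hsp90b1) and below them for 2 (Edem1 and Creld2), where 27.8% and 29.3% of all genes tested did.

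Hspa5 did not separate the groups, with 1241 and 1549 CPM in resistant, against 1361 and 1121 CPM in lenvatinib libraries. Its log2 fold change of 0.17 (SE 0.27), and that of Xbp1, 0.11 (SE 0.18), turned to 0.00 or below with library size alone, at -0.00108 and -0.07. Without resistant SNU-6624, 3 members were called (Manf higher, Edem1 and Sdf2l1 lower), where 34.9% of genes were. Without resistant SNU-6625, 4 were called (Pdia4, Sdf2l1 and Herpud1 higher, Edem1 lower), where 33% of genes were, so that Sdf2l1 was called with opposite signs.

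Ratios of counts within a library do not depend on library scaling, and were chosen after the values were seen, so they are a description. Hspa5 had 2.14 and 2.53 counts per count of Hsp90b1 in resistant SNU-6624 and SNU-6625, 2.44 and 2.42 in lenvatinib libraries, and 1.44, 1.17, 1.28 and 1.31 in the 4 parental libraries. This ratio of transcript counts thus lay higher in all 4 resistant and lenvatinib libraries than in any parental one, as Hspa5 alone did in CPM. Of all genes tested, 27.5% had both lenvatinib libraries above all parental ones in CPM, and 13.6% had both resistant libraries above them. How many other gene pairs would separate the libraries in this way was not tested. The ratio of Creld2 to Pdia4 counts was 0.350 and 0.436 in resistant, 0.616 and 0.765 in lenvatinib, and 0.181 to 0.269 in parental libraries. That of Herpud1 to Edem1 was 3.29 and 2.60 in resistant and 0.885 and 1.13 in lenvatinib libraries, while parental libraries had 2.67 in SNU-6621 and 0.918, 1.03 and 0.730 in the other lines. The last ratio therefore did not separate the resistant from all parental libraries.

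**Figure D4:**
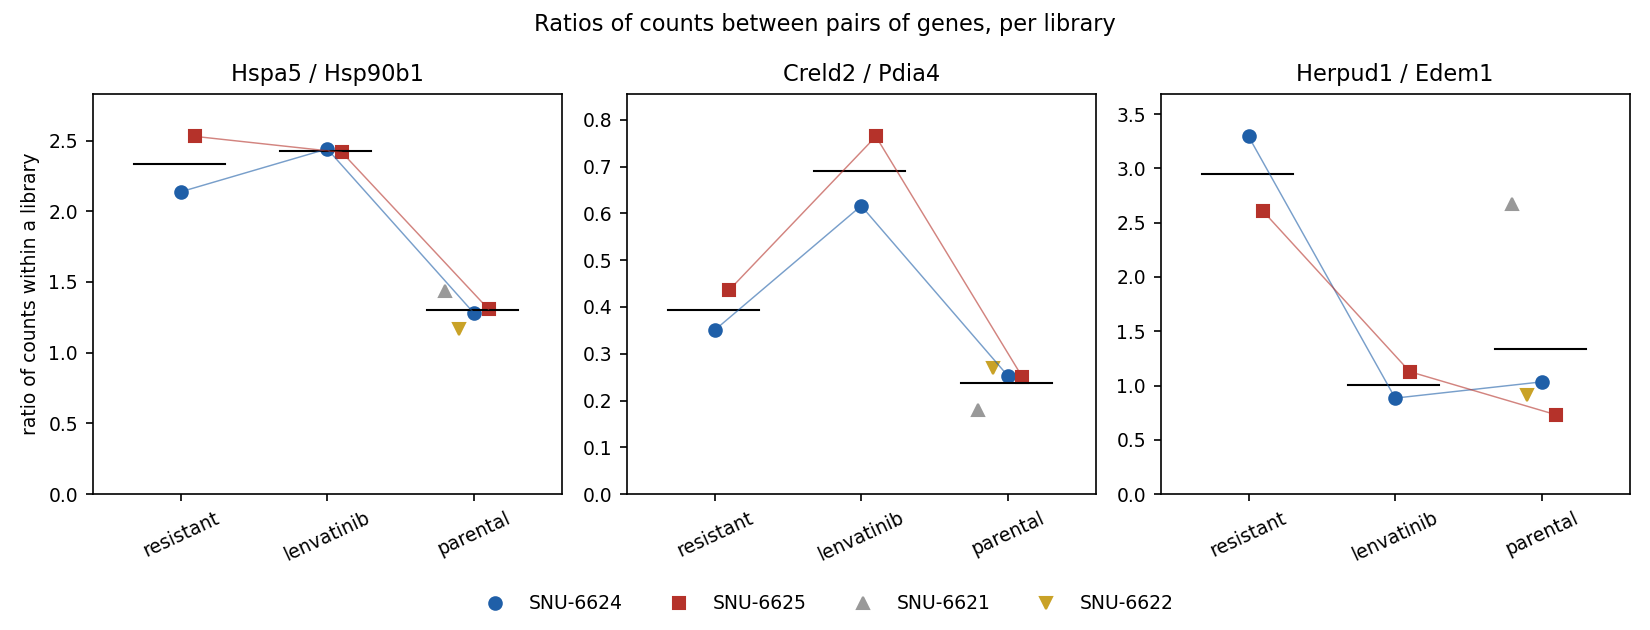
Ratio of counts (y axis, from 0) between gene pairs within each library, 1 point per library, with group means as bars and thin lines joining libraries of a line. Hspa5 over Hsp90b1 is 2.14 to 2.53 in resistant and lenvatinib libraries and 1.17 to 1.44 in parental ones.

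Summed over the 10 genes, the level was 2456 and 2713 CPM in resistant, 2462 and 2101 CPM in lenvatinib and 1502 to 1891 CPM in parental libraries. Hspa5 made up 50.5% and 57.1% of that sum in resistant, 55.3% and 53.4% in lenvatinib, and 36.9% to 42.1% in parental libraries. Without Hspa5 the sums were 1215 and 1163 CPM in resistant, 1101 and 979 CPM in lenvatinib and 949 to 1119 CPM in parental libraries, so the groups then overlapped between lenvatinib and parental.

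The profiles of the 10 genes over the 8 libraries were mixed. The Pearson correlation of the log2 CPM of a member with the mean standardised profile of the other 9 ran from -0.53 for Edem1 and -0.29 for Pdia4 to 0.67 for Manf and 0.69 for Hspa5. These values describe 8 libraries, 6 of which come from 2 lines. Of 9597 other genes with a mean of at least 10 CPM, the 6 most like the mean profile were Gm14150, Tomm40 and Mrpl3 (0.96 each), Mad1l1 (0.95), Ptbp1 and Ssrp1 (0.94 each), none of which is on the ER lists examined here.

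Beyond the 10 genes, no sensor transcript was called with lenvatinib against parental. Of 7 sensors and processing proteases, 5 had positive and 2 negative log2 fold changes, and the median was 0.65. Ern1 had 103 and 74.5 CPM with lenvatinib, against 41.8 and 37.1 CPM in parental (log2 fold change 1.16, SE 0.26, edgeR adjusted p = 0.0714). The fold change of Atf6b, a relative of ATF6, was 1.10 (log2, SE 0.31, edgeR adjusted p = 0.104). Ern2, an IRE1 paralog of mucosal epithelium, had 0 counts in all resistant and lenvatinib libraries, against 17, 11, 30 and 45 counts in parental libraries. The mean CPM of parental SNU-6624 and SNU-6625 was 13.8-fold the mean lenvatinib floor, set at 3 counts per library. This is a bound on the group means, not on each line.

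Of 16 genes of ERAD other than the members, 1 was called up and 0 down with lenvatinib against parental, where 1.7% and 4.08% of all genes were. The log2 fold change was positive for 15 of the 16, with a median of 0.58, and for 49.6% of all genes tested, with a median of -0.01. The called gene was Ube2g2, a ubiquitin-conjugating enzyme of ERAD, with 117 and 111 CPM in lenvatinib, against 66.5 and 50.5 CPM in parental libraries (log2 fold change 0.97, SE 0.15, edgeR adjusted p = 0.0462). Syvn1, the HRD1 ligase (0.77, SE 0.14, edgeR adjusted p = 0.0540), and Herpud2 (0.86, SE 0.22, edgeR adjusted p = 0.0846) were not called. In resistant against lenvatinib, Ube2g2 fell by 0.93 (SE 0.15, edgeR adjusted p = 0.0469). There 1 of 16 was called down, where 2.08% of all genes were, and 15 were negative. In resistant against parental, 0 of 16 were called and the median was 0.06.

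Other ER folding factors showed no call in any of the 3 comparisons. With lenvatinib against parental, 14 of 22 had positive log2 fold changes and the median was 0.16. Hyou1, a nucleotide exchange factor for BiP, had 0.86 (SE 0.17, edgeR adjusted p = 0.0611), Mesd, a chaperone for lipoprotein receptors, 0.67 (SE 0.13), and the prolyl isomerase gene Fkbp2 -1.83 (SE 0.32, edgeR adjusted p = 0.0533). In resistant against parental, 10 of 22 were positive with a median of -0.16. There Dnajb11 (ERdj3), another J-domain partner of BiP, had 0.57 (SE 0.14) and Ero1l, the oxidase that recharges disulfide isomerases, -1.19 (SE 0.29), none called. Of 22 genes of ER entry and ER-Golgi transport, 1 was called up with lenvatinib against parental, where 1.7% of all genes were. It was the COPII coat gene Sec24d (0.93, SE 0.15, edgeR adjusted p = 0.0467). In resistant against parental, 0 of the 22 were called.

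Some genes of related pathways passed the test. Of all genes, 5.78% did in lenvatinib against parental (1.7% higher, 4.08% lower) and 6.23% in resistant against lenvatinib (4.14% higher, 2.08% lower). In the PERK-ATF4 arm, 3 of 12 genes rose with lenvatinib against parental (Chac1, 2.75, SE 0.41; Ddit3, 2.09, SE 0.17; Asns, 1.68, SE 0.28), 0 fell, and the median was 0.55. In resistant against lenvatinib, 2 of the 12 fell, Trib3 (-2.96, SE 0.48) and Ddit3 (-1.25, SE 0.16). Of 12 cytosolic heat shock genes, 4 rose with lenvatinib against parental, led by Hsph1 (3.48, SE 0.52) and Dnajb1 (1.89, SE 0.15), and the list had a median of 1.37. In resistant against parental, 0 were called in either list, with medians of 0.35 and 1.15. Whether these lists differed from the 10 ER genes was not tested.

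**Figure D5:**
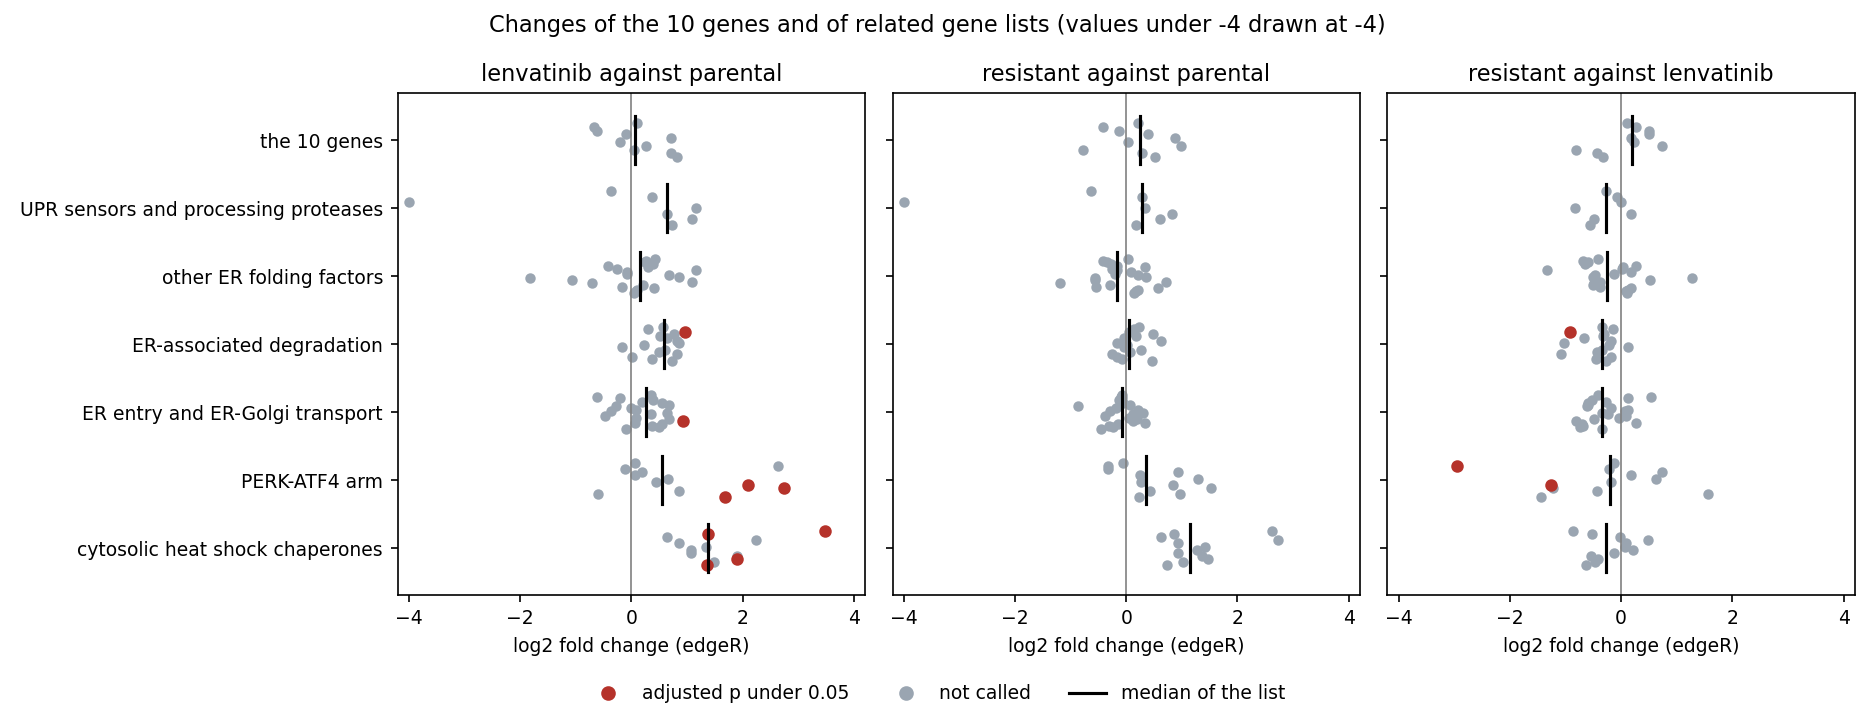
Log2 fold change (x axis, values under -4 drawn at -4) of each gene of the 7 lists in the 3 comparisons, with called genes in red and list medians as bars. In lenvatinib against parental, the median is 0.07 for the 10 genes, 0.58 for ER-associated degradation and 1.37 for cytosolic heat shock chaperones. The points at -4 are Ern2.

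The promoter element was then set beside the values. Of 49 genes with an ERSE or ERSE-II match, 30 were tested, 8 of them from the other ER lists (6 folding factors and 2 ERAD genes). In lenvatinib against parental, 0 of the 30 were called up and 1 down, where 1.7% and 4.08% of all genes tested were. Of the 30, 19 were positive and 11 negative, and their median log2 fold change was 0.08. Over all genes tested, 49.6% were positive and the median was -0.01. In resistant against parental, 0 were called (0% of all genes), with 16 positive, 14 negative and a median of 0.03. There 49.3% of all genes were positive, with a median of -0.01. The 30 include the 4 members shown by sequence. The 26 others had 16 positive, 10 negative and a median of 0.08 with lenvatinib against parental. In resistant against parental they had 12 positive, 14 negative and a median of -0.09. Among the 4 members shown by sequence, the log2 fold changes with lenvatinib were 0.71 for Hspa5, -0.20 for Hsp90b1, 0.83 for Creld2 and 0.26 for Herpud1. In resistant against parental, which shares the parental libraries, they were 0.88 for Hspa5, 0.03 for Hsp90b1, 0.51 for Creld2 and 0.99 for Herpud1, all positive and none called, and that of Hsp90b1 became -0.06 with library size alone. This search was added after the values were seen, and a match is a run of letters, not a measured binding site.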

How the data were processed

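Messenger RNA of 8 organoid libraries was measured after a stranded mRNA kit, per the labels. The authors deposited raw counts, as whole numbers, for 45777 NCBI genes. The submitters' processing notes name build mm10 and, in no stated order, StringTie 2.1.3b, HISAT2 2.1.0, Bowtie2 2.3.4.1, Trimmomatic 0.38 and FastQC 0.11.7. How reads were assigned and with which strand setting is not given in the sources used here. Without a stated strand setting, overlapping genes cannot be told apart with certainty.

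The counts were fitted with edgeR 4.0.16 in R 4.3.3 (quasi-likelihood F test, TMM scaling, filterByExpr) on the 6 libraries of the lines present in every group, with terms for group and line, and p-values were adjusted by Benjamini-Hochberg over 17038 genes. A gene was called at an adjusted p under 0.05. Each SE was derived from the estimate and its F statistic. The fit had 2 residual degrees of freedom. Line was a term because the labels name the same line in each group. Deviations from group means of libraries of one line correlated across genes at 0.29 to 0.50. Changes in single lines are log2 CPM differences with a prior count of 2. TPM used exon unions of GENCODE M21 for 22223 genes, which held 97.25% to 98.01% of counts. Positions and promoters are RefSeq on GRCm38.p6, whose primary assembly is mm10. The procedure was tested on counts simulated with the same spread for all genes, in lenvatinib against parental. It called 3.41% of genes changed 2-fold, 41.6% of those changed 4-fold and 92.2% of those changed 8-fold. These rates hold for that shared spread, without line differences and with few changed genes, and not for the spread of each member. Resistant against parental was not simulated. The largest estimate among the members was 1.98-fold (Herpud1, resistant against parental). With 2 residual degrees of freedom, the lack of a call does not show that a member was unchanged.

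The members and lists were chosen with earlier results of these data known. Named genes are all 10 members, the called genes of each other list (up to 6), or the 3 with the smallest p-values, of which the text gives part, and the 6 genes most like the members' mean profile. Ero1a and Ero1b matched under the older symbols Ero1l and Ero1lb. Alternatives were DESeq2 1.42.0, limma-voom (limma 3.58.1), other scaling, filters and libraries, no line term, and each library left out. Counting error was small, since every member had at least 472 counts. No pair of libraries was identical.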

Additional observations from a re-analysis of the deposited data

Results flagged for a closer look

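Hspa5 in the parental lines stood out for 1 library: SNU-6622 had 554 CPM, and its gap to the next line took 0.867 of the range of the 4 lines, above the 95% limit of Dixon's test. Chance flags about 1 in 20 such groups.

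The other results listed here had log2 changes of opposite sign in SNU-6624 and SNU-6625, each larger than its counting error. With 1 library per line and group, the difference between the lines was not tested. In resistant against parental, Sdf2l1 had 0.31 in SNU-6624 and -1.26 in SNU-6625, Pdia4 had 0.11 and -0.37, and Hsp90b1 had -0.053 and 0.11. In resistant against lenvatinib, Sdf2l1 had 0.94 and -0.57, Hspa5 had -0.13 and 0.47, and Xbp1 had -0.085 and 0.29. In lenvatinib against parental, Edem1 had 0.26 and -0.17.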

How the results depend on the processing

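Among alternative values for counts and medians, 92 kept direction and side of the threshold or moved little, 24 gained a call or calls, 12 lost them and 14 medians moved. Among those for single members, 392 kept both, 39 became called and 19 changed sign. The cause of the other changes was not tested. The replicate block (line) was in the fit since the same line was sampled in each group. Without it, lenvatinib against parental called 1 member and resistant against parental had a member median of 0.26, with no other call changed among members. For lenvatinib against parental, all genes called were 651 with all 8 libraries, 7942 with the 4 compared, 3669 with DESeq2, 1697 with limma-voom and 174 with no filter. Members called were 5, 4, 1 and 1 with the 4 compared, DESeq2, limma-voom and a filter of 10 CPM. The member median was 0.041 with DESeq2 and with RLE factors, 0.15 with library size alone and -0.022 with the 10 CPM filter, where Edem1 was -0.051. For resistant against parental, DESeq2 called 1104 genes and 3 members, the member median was 0.16 with library size alone and 0.21 with the 10 CPM filter, and Hsp90b1 was -0.062 and -0.010. For resistant against lenvatinib, all genes called were 234 with the 4 compared, 3569 with DESeq2 (2 members) and 324 with no filter, and with library size alone Hspa5 was -0.00108 and Xbp1 -0.065. With each library left out, the genes called ranged over 0 to 7798, 0 to 5819 and 0 to 6286 for lenvatinib against parental, resistant against parental and resistant against lenvatinib, and the members over 0 to 5, 0 to 5 and 0 to 4. Member medians ran from -0.019 to 0.087 and from 0.14 to 0.36 in the comparisons with parental. Signs turned in lenvatinib against parental for Edem1 (-0.16 to 0.25), Herpud1 (-0.053 to 0.52) and Xbp1 (-0.054 to 0.26). They turned in resistant against parental for Hsp90b1 (-0.10 to 0.15), Pdia4 (-0.34 to 0.077), Sdf2l1 (-1.25 to 0.29) and Xbp1 (-0.018 to 0.41), and in resistant against lenvatinib for Hspa5 (-0.078 to 0.42), Sdf2l1 (-0.58 to 0.95) and Xbp1 (-0.12 to 0.33). A group left with 1 library was assumed to vary like the others. Every member had at least 472 counts in each library, and each line had 1 library per group.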
